A study of Rattus norvegicus with 17 samples.

Results

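The genes described here copy DNA and divide the cell. They were 27 genes of mitosis (cyclins A and B with CDK1 and FOXM1, mitotic kinases, spindle and chromosome proteins) and 27 genes of DNA replication (S phase entry, the replicative helicase, fork synthesis, deoxynucleotide supply and chromatin replication). A gene was taken where a probe set of the array was annotated with that symbol alone, and where a gene had several, that of highest mean was used. This gave 50 of the 54 genes, 26 of mitosis and 24 of replication, among 14506 genes measured in the same way. Cenpf, Mcm3, Mcm4 and Chaf1a had no such probe set and were not analysed here.

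In a dividing cell the E2F transcription factors, held back by RB until cyclin-dependent kinases release them, turn on the genes of replication before S phase. The genes of mitosis follow in G2 through B-MYB, FOXM1 and the MuvB complex, which binds CHR elements and acts with NF-Y at CCAAT boxes. The inhibitor p27Kip1, the product of Cdkn1b, restrains the cyclin-dependent kinases at the entry to this programme, and PI3K and mTOR signalling promotes growth and the G1 to S transition.

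Transcripts were measured on 17 arrays of tumour tissue from rats that carried a mutation of Cdkn1b. The controls were 7 libraries (5 from female and 2 from male rats) labelled 20 mg/kg PEG, and 10 libraries were of rats treated with NVP-BEZ235, which blocks PI3K and mTOR, at 20 mg/kg (4 female, 2 male) or 30 mg/kg (3 female, 1 male). All groups shared the mutated gene, the strain Sprague-Dawley white eye/Wistar-Kyoto and an age of 8 months. The sample labels call the mutation homozygous and the design text heterozygous, the length of treatment is not given, and the field for the treatment protocol names none. The labels do not say that each library came from its own animal, so p-values measure the spread between these libraries. Within a library, values are log2 signals of the RMA method, and the lower quartile of all probe sets of an array, 3.65 to 3.91, served as its background level.

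The labels call the tissue pituitary adenoma, but the title of the series speaks of pheochromocytoma, which arises from chromaffin cells of the adrenal gland. The mean over 8 chromaffin markers lay between 9.87 and 11.31 in every library and that over 9 adrenal cortex markers between 10.33 and 11.63, and 9 pituitary endocrine markers averaged 4.07 to 4.93. Cdkn1b itself ranged from 7.85 to 9.39, was higher at 20 mg/kg than in control (0.55 ± 0.13, SE, limma adjusted p = 0.042) and did not pass at 30 mg/kg (-0.14 ± 0.14, adjusted p = 0.62). The files do not say which part of its transcript the probe set covers, so these values check no genotype. The titles number the controls 1 to 7, the 30 mg/kg libraries 1 to 4 and the 20 mg/kg libraries 5 to 10, and both male controls are numbers 6 and 7. Dose therefore goes with the set of numbers among treated libraries, and controls 1 to 4 are all female, so values are also given within numbers 1 to 4 and within 5 to 10.

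The upstream sequences of some of the mitosis genes that passed a test below are shown, since the elements named above lie there. For replication, a pair of MCM helicase subunits is shown, neither of which passed with all libraries and the processing described below. Each run is the 150 bases before the annotated start (RefSeq, build GRCr8), written 5′ to 3′ on the strand of the gene. The capitals mark the letters of a CHR, which is TTTGAA and in a variant form TTCGAA, of a CCAAT box, or of an E2F site, for which TTCCCGC and separately TTGGCGC were searched, each on either strand. These 6 were picked after their matches and values were seen.
Top2a (chr10:84473094-84473243, reverse strand): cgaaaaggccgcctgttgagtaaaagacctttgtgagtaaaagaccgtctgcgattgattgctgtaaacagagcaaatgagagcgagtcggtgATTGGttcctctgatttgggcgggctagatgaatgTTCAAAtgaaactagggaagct
Prc1 (chr1:143659331-143659480, forward strand): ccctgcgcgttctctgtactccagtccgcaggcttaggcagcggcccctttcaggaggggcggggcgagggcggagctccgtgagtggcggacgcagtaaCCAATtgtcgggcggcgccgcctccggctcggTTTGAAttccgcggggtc
Ccnb2 (chr8:79981659-79981808, reverse strand): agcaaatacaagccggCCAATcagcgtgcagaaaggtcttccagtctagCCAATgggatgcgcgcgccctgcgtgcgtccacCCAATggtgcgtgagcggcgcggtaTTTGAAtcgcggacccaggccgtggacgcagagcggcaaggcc
Tacc3 (chr14:81289699-81289848, reverse strand): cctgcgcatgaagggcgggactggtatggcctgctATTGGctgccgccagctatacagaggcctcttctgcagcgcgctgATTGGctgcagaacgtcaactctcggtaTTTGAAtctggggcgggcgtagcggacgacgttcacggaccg
Mcm5 (chr19:13488663-13488812, forward strand): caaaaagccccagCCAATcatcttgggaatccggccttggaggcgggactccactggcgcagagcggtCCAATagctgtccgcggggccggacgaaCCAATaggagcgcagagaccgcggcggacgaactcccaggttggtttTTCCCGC
Mcm6 (chr13:42404353-42404502, reverse strand): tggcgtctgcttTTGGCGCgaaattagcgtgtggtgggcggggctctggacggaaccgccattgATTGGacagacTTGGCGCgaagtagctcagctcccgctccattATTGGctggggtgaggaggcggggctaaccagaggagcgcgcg
In Ccnb2 the CCAAT letters began at positions -134, -101 and -68 from the start and the CHR letters ran from -43 to -38. A promoter of 250 bases before to 50 after the start was at hand for 41 of the 50 genes, 21 of mitosis and 20 of replication. CHR letters were in 61.9% of the mitosis promoters, in 20.0% of the replication promoters and in 21.0% of those of all 27457 genes in the table. CCAAT letters were in 76.2%, 60.0% and 39.6%, and both together in 57.1%, 15.0% and 8.6%. E2F letters were in 4.8% of the mitosis promoters (Cdk1), 65.0% of the replication promoters and 7.0% of all. Of the 11968 genes on the array with a promoter, 17.3% had CHR letters, 39.0% CCAAT letters, 7.2% both and 9.8% E2F letters. Among genes that passed but are not printed, Hmmr had CHR and CCAAT letters in this window, and Ccnb1 and Kif11 had CCAAT letters without a CHR. Mcm2 had CHR letters only, Rfc3 letters of all the elements, and Uhrf1 CCAAT and E2F letters. Overlapping letters of different elements were each counted. A match is a description of the letters in this window, not of a bound factor.

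Of the 50 genes, 4 were lower in the 10 treated than in the 7 control libraries and 0 were higher (limma with sex as a term, Benjamini-Hochberg adjusted p under 0.05 over all genes). Over all 14506 genes 0.965% were lower and 0.517% higher. The 4 were the mitosis genes Top2a, Prc1 and Ccnb2 and the replication gene Rrm2. The median log2 difference was -0.28 over the 26 mitosis genes, 25 of them negative, and -0.06 over the 24 replication genes, 17 of them negative, against -0.00 over all genes. Before adjustment, 14 of 26 mitosis and 3 of 24 replication genes had p under 0.05, all of them lower, against 2095 of 14506. In bulk tissue, fewer dividing cells and less RNA per cell cannot be told apart.

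**Figure D1:**
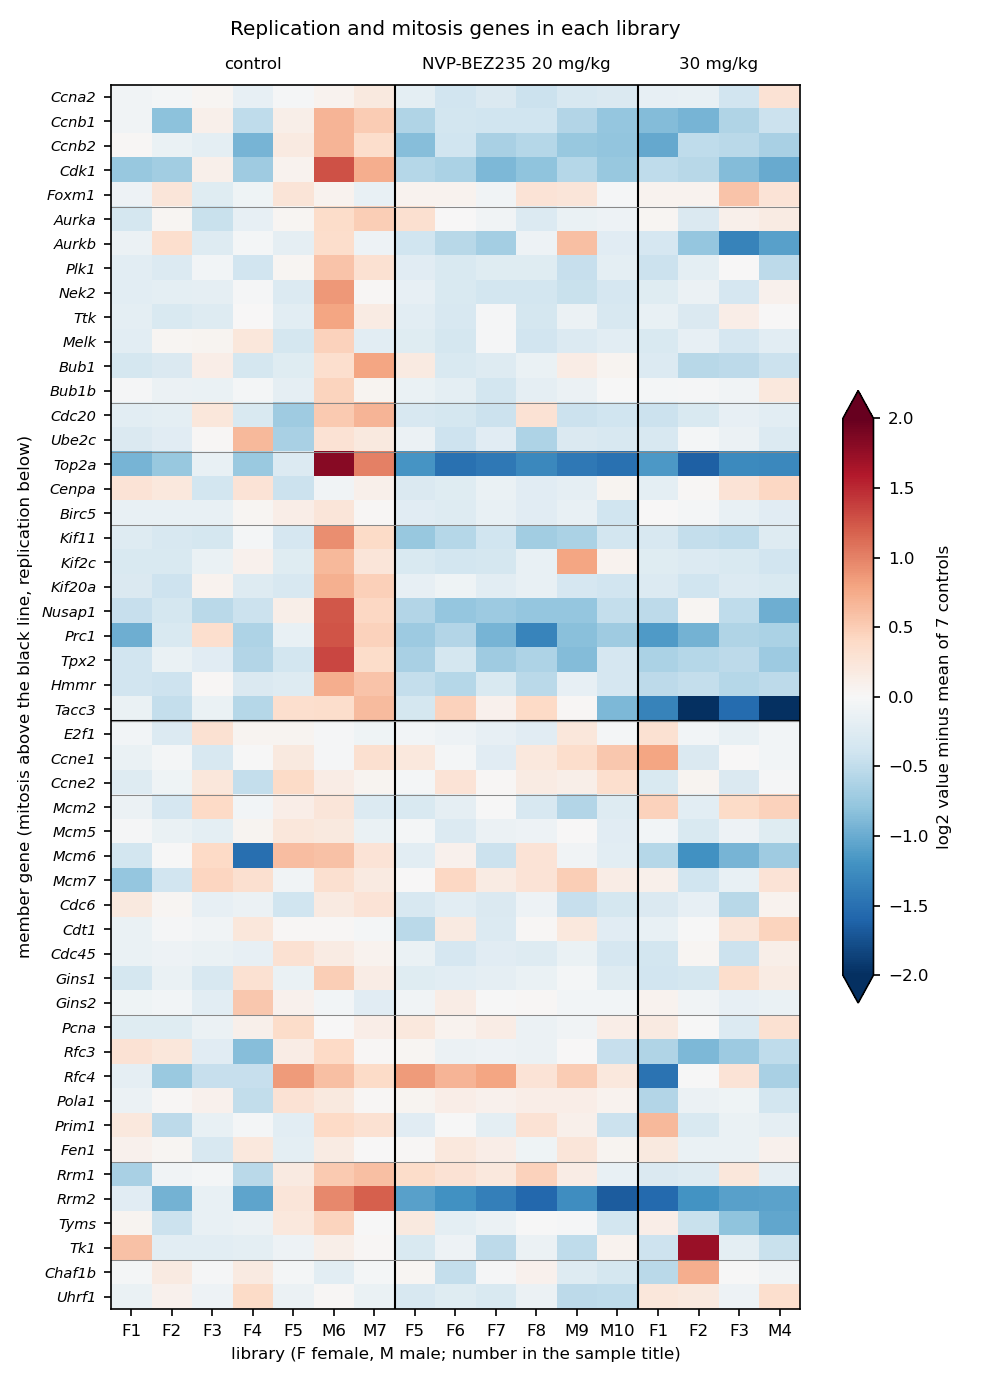
Heat map of all 50 measured genes (rows, mitosis above the black line and replication below) in all 17 libraries (columns; F female, M male, with the number of the sample title). Colour is the log2 value minus the mean of the 7 controls, cut at 2 either way; male controls 6 and 7 carry the warm colours of the mitosis genes, and the treated columns are pale to blue for most of these.

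Top2a, the topoisomerase that untangles sister chromosomes, stood at 4.23, 4.41, 5.02, 4.43 and 4.90 in the female controls and at 6.99 and 6.18 in the male controls. At 20 mg/kg it stood at 3.98, 3.67, 3.73 and 3.87 in female and at 3.73 and 3.68 in male rats. At 30 mg/kg it stood at 4.01, 3.54 and 3.89 in female rats and at 3.87 in the male. Every treated library thus lay below every control, and the treated values were near the background level of the arrays, where RMA compresses differences. The difference was -1.38 ± 0.26 (SE, limma adjusted p = 0.015). A gap of this kind, with all treated below all control libraries, was also found for Rrm2 and for 0.165% of all genes.

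Rrm2, the small subunit of ribonucleotide reductase, which makes deoxynucleotides, was the replication gene that passed. It stood at 5.24, 4.51, 5.31, 4.40 and 5.70 in the female controls and at 6.42 and 6.65 in the male controls. At 20 mg/kg it stood at 4.38, 4.25, 4.10, 3.89, 4.22 and 3.79, and at 30 mg/kg at 3.90, 4.27, 4.37 and 4.39. The highest treated library lay just under the lowest control, and the male controls were again the highest. The difference was -1.31 ± 0.23 (SE, limma adjusted p = 0.011). Another probe set of Rrm2, which was not used, had a mean of 3.96, near the background level. Rrm2 also passed when the mean of its probe sets was taken.

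Prc1, which bundles the microtubules of the spindle midzone, stood at 4.13, 4.81, 5.44, 4.49 and 4.96 in the female and at 6.37 and 5.58 in the male controls. Treated libraries ranged from 3.79 to 4.52, so controls 1 and 4 lay among them. The difference was -0.85 ± 0.20 (limma adjusted p = 0.042). Ccnb2, a B-type cyclin that partners CDK1, stood at 5.63, 5.47, 5.41, 4.68 and 5.79 in the female and at 6.29 and 5.96 in the male controls. Treated libraries ranged from 4.58 to 5.20, all below 6 of the 7 controls, and the difference was -0.68 ± 0.16 (adjusted p = 0.042). All 10 treated libraries lay below the control mean for Prc1 and for Ccnb2.

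**Figure D2:**
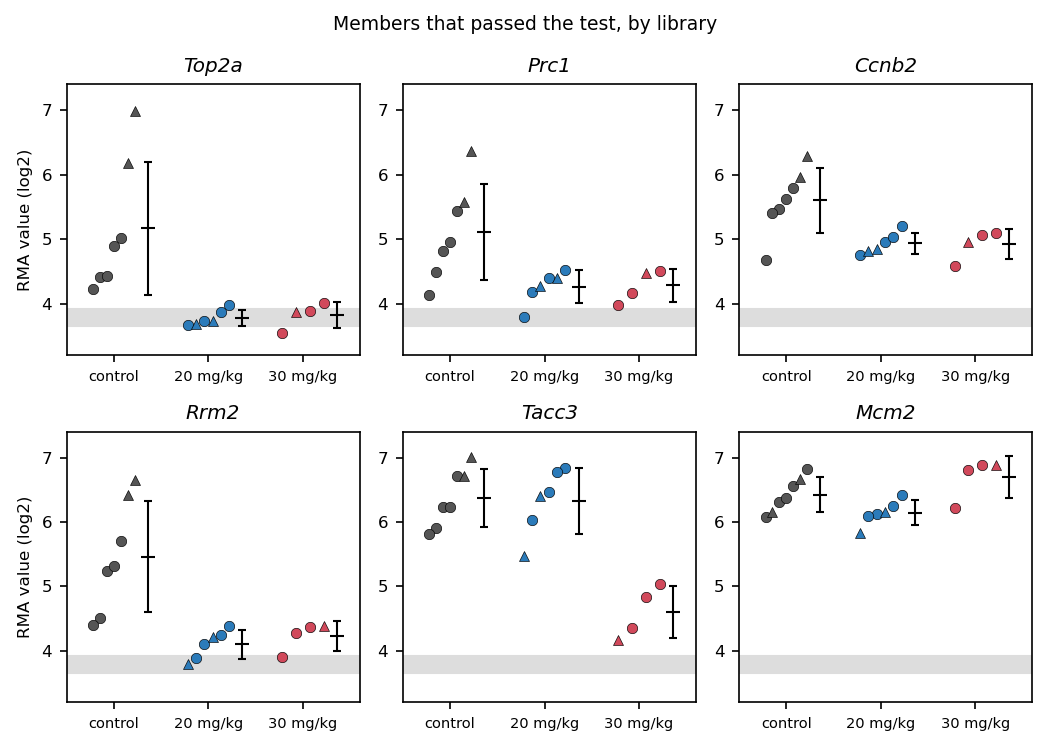
RMA log2 values of 6 genes in each library (circles female, triangles male rats, in order of value within a group; bars are the group mean and SD; the grey band is the range of the lower quartiles of the arrays). Top2a, Prc1, Ccnb2 and Rrm2 had lower means than control at both doses and Tacc3 at 30 mg/kg, and the mean of Mcm2 was higher at 30 than at 20 mg/kg; the sample sizes are 7, 6 and 4.

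By role, of the 5 genes of cyclins, CDK1 and FOXM1, Ccnb2 passed, and Ccnb1 (-0.60 ± 0.16, limma adjusted p = 0.070) and Cdk1 (-0.72 ± 0.21, adjusted p = 0.10) did not. Foxm1, the transcription factor of this programme, was the 1 of 26 mitosis genes with a positive difference (0.15 ± 0.10, adjusted p = 0.56). None of the 8 mitotic and checkpoint kinases passed, although all 8 differences were negative, from -0.49 for Aurkb, the kinase of the chromosomal passenger complex, to -0.03 for Aurka; Melk had -0.25 ± 0.10 (adjusted p = 0.26). The anaphase-promoting complex cofactors Cdc20 and Ube2c both had -0.28, with adjusted p of 0.46 and 0.41.

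Among the chromosome and kinetochore genes beside Top2a, Birc5, which encodes survivin, had -0.18 ± 0.08 (limma adjusted p = 0.32) and Cenpa, the centromeric histone, -0.05. All 8 spindle motors and microtubule genes had negative differences with a median of -0.55. Hmmr, a spindle assembly factor, had -0.46 ± 0.11 (adjusted p = 0.056) and Kif11, the kinesin that pushes spindle poles apart, -0.51 ± 0.13 (adjusted p = 0.061). Tpx2 (-0.60), Nusap1 (-0.61) and Tacc3 (-0.74 ± 0.38, adjusted p = 0.39) did not pass either. Tacc3 had an SD of 1.0 over the treated libraries, 0.51 at 20 mg/kg and 0.41 at 30 mg/kg.

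Replication genes other than Rrm2 showed small differences of either sign. The S phase entry genes E2f1 (-0.03 ± 0.09, limma adjusted p = 0.93) and Ccne1 (0.15 ± 0.14, adjusted p = 0.72) did not pass. Of the 9 genes of origin licensing and the CMG helicase, Cdc6, which loads the helicase, ranged from 3.53 (median 3.96) to 4.20 in control and from 3.37 (median 3.64) to 4.0 in treated libraries. Cdc45, a subunit of the active helicase, ranged from 4.61 (median 4.67) to 5.07 in control and from 4.34 (median 4.53) to 4.88 in treated libraries. The groups overlapped for both, and the differences of -0.27 ± 0.10 and -0.21 ± 0.09 did not pass (adjusted p = 0.23 and 0.30). The MCM subunits Mcm2, Mcm5, Mcm6 and Mcm7 had -0.06, -0.15, -0.40 and 0.13.

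Of the 6 genes of fork synthesis, Rfc3, a subunit of the clamp loader, ranged from 5.35 (median 6.35) to 6.59 in control and from 5.29 (median 5.90) to 6.23 in treated libraries (-0.35 ± 0.18, limma adjusted p = 0.38). Pcna, the sliding clamp, had 9.29 ± 0.22 (SD, n = 7) in control and 9.35 ± 0.17 (n = 10) in treated libraries. Fen1, the flap nuclease, had a difference of 0.06 ± 0.09 (adjusted p = 0.84). Beside Rrm2, the deoxynucleotide genes Tyms, Tk1 and Rrm1, the large reductase subunit, had -0.27, -0.08 and 0.08, and the chromatin genes Uhrf1 and Chaf1b -0.13 and -0.09. None of these passed.

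**Figure D3:**
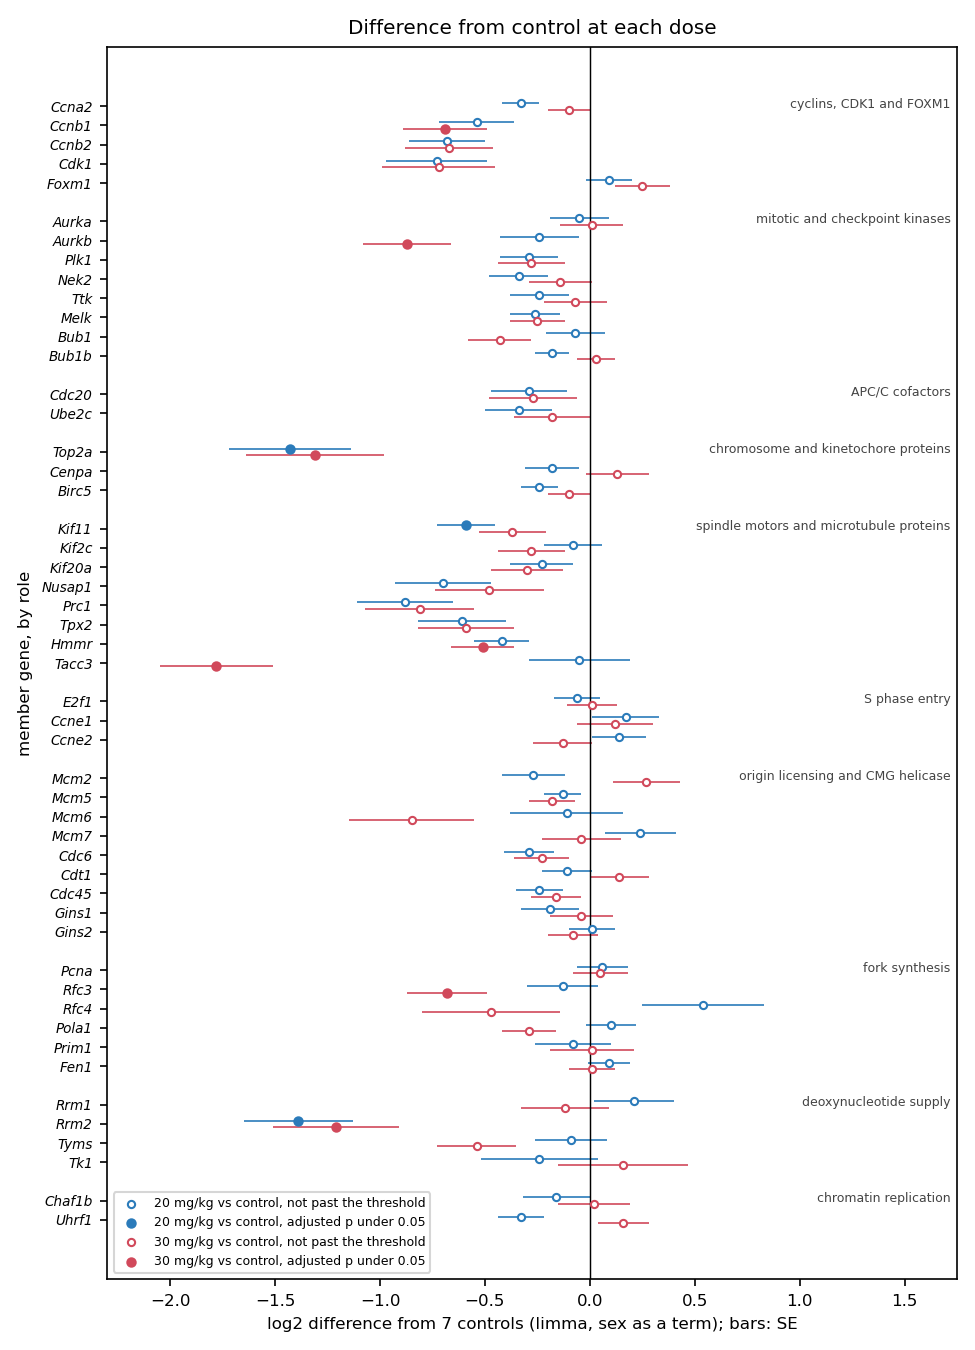
Log2 difference from the 7 controls (limma, sex as a term; bars are SE) of each gene by role, at 20 mg/kg (blue) and 30 mg/kg (red); filled points have an adjusted p under 0.05 over all genes. The filled points are 3 at 20 mg/kg and 7 at 30 mg/kg, all left of 0.

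Many mitosis genes were near the background level. Above the lower quartile of its array in all 17 libraries were 14 of 26 mitosis and 17 of 24 replication genes, against 74.4% of all genes. Above the array median throughout were 2 and 8, against 50.1%. The count of mitosis genes above the lower quartile ran from 17 to 26 in control, from 17 to 18 at 20 mg/kg and from 16 to 20 at 30 mg/kg. For replication genes it ran from 21 to 24, from 19 to 22 and from 20 to 21. The mean over the 26 mitosis genes was 4.54 ± 0.35 (SD, n = 7) in control, 4.18 ± 0.03 (n = 6) at 20 mg/kg and 4.12 ± 0.02 (n = 4) at 30 mg/kg. That over the 24 replication genes was 5.43 ± 0.16, 5.34 ± 0.05 and 5.25 ± 0.03. The 7 control libraries spread more than the treated ones in both. Within the 5 female controls the SD was 0.07 for the mitosis and 0.12 for the replication genes.

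**Figure D4:**
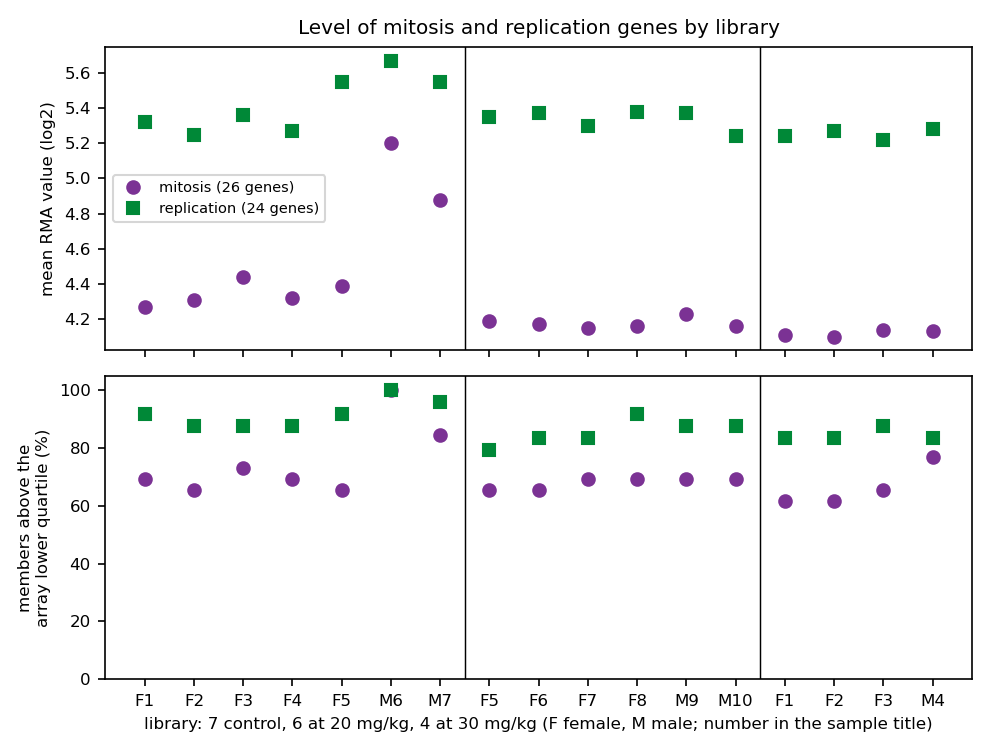
Upper panel, mean RMA log2 value over the 26 mitosis genes (circles) and the 24 replication genes (squares) in each library; lower panel, the percentage of each that lay above the lower quartile of the array. Control M6 has the highest means, 5.20 and 5.67, and all genes of both kinds above the lower quartile, so its points overlap at the top.

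For the mitosis genes, the means of the male controls stood above those of the female ones. The mean over the 26 genes was 4.35 ± 0.07 (SD, n = 5) in the female controls and 5.20 and 4.88 in the male controls 6 and 7. Among treated libraries it was 4.15 ± 0.03 (n = 7) in female and 4.17 ± 0.06 (n = 3) in male rats. Both male controls lay above every female control for 20 of 26 mitosis genes and 3 of 24 replication genes, against 11.6% of all genes. The highest control was replicate 6 or 7 for 23 of 26 mitosis and 8 of 24 replication genes, against 26.3% of all genes. Both male controls are from numbers 5 to 7, and control 5, the female of these numbers, had a mitosis mean of 4.39, within the 4.27 to 4.44 of controls 1 to 4. The replication genes were otherwise: control 5 stood at 5.55, as did male control 7, and the mean was 5.30 ± 0.05 (SD, n = 4) in controls 1 to 4 and 5.59 ± 0.07 (n = 3) in controls 5 to 7. The contrast of the sexes within controls 5 to 7 rests on 1 female library.

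Top2a was the gene, of all 14506 tested, for which the difference between treated and control differed between the sexes. It was lower by 2.83 in male and by 0.79 in female treated libraries, and the difference of these differences was -2.04 ± 0.29 (limma interaction, adjusted p = 0.037). The 1 gene is 0.00689% of those tested in the lower direction, and 0% passed in the higher. Before adjustment, 19 of the 50 genes had p under 0.05, all with the more negative difference in male rats, against 951 of 14506. Among them were Rrm2 (-1.53 ± 0.37, adjusted p = 0.50), Cdk1 (-1.49 ± 0.31, adjusted p = 0.35) and Kif20a (-0.94 ± 0.18, adjusted p = 0.35). The call for Top2a was lost without control replicate 6 (-1.64, adjusted p = 0.47), with the set of numbers as a term (-2.0, adjusted p = 0.13) and within numbers 5 to 10 (-1.80, adjusted p = 0.56). It was also lost without any of 11 other libraries taken out in turn, with values from -2.10 to -1.95 and adjusted p from 0.068 to 0.20, and had an adjusted p of 0.0019 without control replicate 7 (-2.45).

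The calls between treated and control libraries rested in part on these male controls. In female rats alone, Top2a had -0.79 ± 0.15 (limma adjusted p = 0.086), Rrm2 -0.87 ± 0.21 (adjusted p = 0.15), Prc1 -0.55 ± 0.20 (0.34) and Ccnb2 -0.44 ± 0.18 (0.36). None of the 50 genes passed there, with 9 lower and 0 higher at p under 0.05 before adjustment. The share of all genes in female rats alone is not given here. Without control replicates 6 and 7, a choice made after seeing the data, Top2a had -0.79 ± 0.14 and passed (adjusted p = 0.040), while Rrm2 had -0.87 ± 0.20 (adjusted p = 0.12). Without replicate 7 alone Rrm2 remained called (adjusted p = 0.035) and Top2a did not (adjusted p = 0.056). The calls of Prc1 and Ccnb2 were lost without replicate 6 (adjusted p = 0.089 and 0.11), without replicate 7 (0.10 and 0.12) and without several treated libraries, in all without 11 of 17 libraries for Prc1 and 14 of 17 for Ccnb2.

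Within numbers 1 to 4, where the 30 mg/kg libraries meet 4 female controls, none of the 50 genes passed limma, with 4 lower and 0 higher at p under 0.05 before adjustment. Top2a had -0.71 ± 0.22 (adjusted p = 0.34) and Rrm2 -0.69 ± 0.26 (adjusted p = 0.46), and the term for sex there absorbs the single male library. Within numbers 5 to 10, where 20 mg/kg libraries meet controls 5 to 7, 7 were lower and 0 higher. They were Top2a (-2.09 ± 0.32, adjusted p = 0.015), Rrm2 (-2.09 ± 0.21, adjusted p = 0.0026), Prc1, Ccnb2, Ccnb1, Cdk1 and Nusap1. With the set of numbers as a term 10 were lower and 0 higher over both doses. Top2a and Rrm2 thus had negative differences within both sets. The shares of all genes in these fits are not given here, so the counts stand without a comparison.

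At 20 mg/kg, 3 of the 50 genes were lower than in control and 0 higher, against 0.524% and 0.655% of all genes. They were Rrm2 (-1.39 ± 0.26, limma adjusted p = 0.022), Top2a (-1.43 ± 0.29, adjusted p = 0.026) and Kif11 (-0.59 ± 0.14, adjusted p = 0.050). Kif11 ranged from 3.35 to 3.73 at 20 mg/kg and from 3.75 to 5.03 in control, at or near background in most. Prc1 (-0.88 ± 0.23, adjusted p = 0.062) and Ccnb2 (-0.68 ± 0.18, adjusted p = 0.069) lay just outside the threshold. The call of Kif11 was lost without any of 15 of the 17 libraries, that of Top2a without control replicate 7 (adjusted p = 0.061) or without any of 5 treated libraries, and that of Rrm2 without replicate 7 or 8 at 20 mg/kg (0.056 and 0.064).

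At 30 mg/kg, 7 of the 50 genes were lower than in control and 0 higher, against 4.89% and 3.66% of all genes. The largest difference was that of Tacc3, which stabilises spindle microtubules (-1.78 ± 0.27, limma adjusted p = 0.0011). Tacc3 stood at 5.04, 4.36, 4.84 and 4.17 at 30 mg/kg, against 6.24, 5.90, 6.24, 5.81, 6.71, 6.72 and 7.01 in controls 1 to 7. The groups did not overlap, and the share of all genes with such a gap at this dose is not given here. At 20 mg/kg Tacc3 stood at 6.03, 6.83, 6.46, 6.77, 6.40 and 5.47, within or near the range of all controls (-0.05 ± 0.24, adjusted p = 0.94). Against controls 5 to 7 alone, the 20 mg/kg difference of Tacc3 was -0.60 ± 0.26 (adjusted p = 0.28), and with the set of numbers as a term it was -0.62 ± 0.24 (adjusted p = 0.39). Its call at 30 mg/kg held in female rats alone (-1.43 ± 0.24, adjusted p = 0.011), with the set of numbers as a term (-1.35 ± 0.24, adjusted p = 0.0078) and without each library in turn. Within numbers 1 to 4 it was lost (-1.30 ± 0.21, adjusted p = 0.081).

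Aurkb was also lower at 30 mg/kg (-0.87 ± 0.21, limma adjusted p = 0.018). It stood at 4.93, 4.50, 3.93 and 4.19 there, below every control, which ranged from 5.02 to 5.62. As for Tacc3, the share of all genes with such a gap is not given here. Ccnb1 (-0.69 ± 0.20, adjusted p = 0.043) and Hmmr (-0.51 ± 0.15, adjusted p = 0.039) also passed, with Top2a (-1.31 ± 0.33, adjusted p = 0.021). The replication genes that passed were Rrm2 (-1.21 ± 0.30, adjusted p = 0.019) and Rfc3 (-0.68 ± 0.19, adjusted p = 0.030). Rfc3 stood at 5.60, 5.29, 5.46 and 5.69 at 30 mg/kg, among the range of controls only through control replicate 4. In female rats alone, and with the set of numbers as a term, Tacc3 was the only one of the 7 that remained called. Without replicate 4 at 30 mg/kg, the male, only Tacc3 remained (Top2a adjusted p = 0.13, Rrm2 0.099), and without replicate 3 Rrm2, Tacc3 and Top2a. Without control replicate 4, 11 of the mitosis and replication genes were lower, and 792 of all 14506 genes were. Without control replicate 6 these counts were 4 and 494, and with all libraries they were 7 and 709. The count of these genes thus rose and fell with that of all genes. The call of Ccnb1 was lost without any of 13 of the 17 libraries, that of Hmmr without 8, Rfc3 without 5 and Aurkb without replicates 3 or 4 at 30 mg/kg (adjusted p = 0.070 and 0.11). The 20 and 30 mg/kg comparisons share their 7 controls.

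Between the doses, 1 of the 50 genes was lower at 30 than at 20 mg/kg and 2 were higher, against 8.16% and 3.92% of all genes. Before adjustment, 12 of the 50 had a limma p under 0.05, against 4217 of all 14506 genes. The 50 genes were thus called lower less often than all genes, and higher about as often. The calls below therefore do not set these genes apart from the rest of the array. Tacc3 was lower (-1.73 ± 0.28, limma adjusted p = 0.0037), with every 30 mg/kg library below every 20 mg/kg library. The share of all genes with such a gap between the doses is not given here. Uhrf1, which binds hemimethylated DNA behind the fork, was higher (0.49 ± 0.12, adjusted p = 0.019), from 3.97 to 4.37 at 20 mg/kg and 4.71, 4.69, 4.39 and 4.83 at 30 mg/kg. Mcm2, a subunit of the replicative helicase, was also higher (0.54 ± 0.17, adjusted p = 0.045), from 5.83 to 6.42 at 20 mg/kg and 6.88, 6.21, 6.81 and 6.88 at 30 mg/kg. The call of Mcm2 was lost without any of 8 libraries, and both calls of higher genes were lost without replicate 4 at 30 mg/kg (adjusted p = 0.19 for Mcm2 and 0.11 for Uhrf1).

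With the set of numbers as a term, which then rests on the controls of each set, Tacc3 differed between the doses by -0.72 ± 0.35 (limma adjusted p = 0.76), Uhrf1 by 0.40 ± 0.20 (adjusted p = 0.77) and Mcm2 by 0.66 ± 0.28 (adjusted p = 0.72). In that fit, added after seeing the data, 0 of all 14506 genes passed, with 502 lower and 469 higher at p under 0.05 before adjustment. Tacc3 stood at 6.71 to 7.01 in controls 5 to 7 and at 5.81 to 6.24 in controls 1 to 4. Dose and set of numbers thus cannot be told apart in the direct comparison of the doses.

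Other genes of the same pathways, from lists that hold none of the 50, were counted in the same fits. Of 41 measured of 57 other mitosis genes, 3 were lower and 0 higher in treated than in control libraries. These were the kinetochore gene Spc25 (-0.65 ± 0.13, limma adjusted p = 0.021), the cytokinesis kinase Cit (-0.68 ± 0.15, adjusted p = 0.034) and the central spindle kinesin Kif23 (-0.51 ± 0.12, adjusted p = 0.040). The median of the 41 was -0.25 and 39 were negative. Before adjustment, 22 of the 41 had p under 0.05, all lower, against 14.4% of all genes (954 lower and 1141 higher). Of 45 measured of 51 other replication genes 0 passed, with a median of -0.01, and 3 were lower and 3 higher at p under 0.05, which is 13.3% and near the share of all genes. Of 19 measured of 26 RB, E2F and DREAM regulators 0 passed, with a median of 0.01, and 4 were lower and 4 higher at p under 0.05 (42.1%).

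Markers of some other cells also differed between the groups, in either direction. Of 9 pituitary endocrine and 3 sustentacular and Schwann markers, 0 passed in treated libraries. The mean of 9 markers of lymphocytes, which can divide in tissue, was 4.53 to 4.89 in control, 4.31 to 4.47 at 20 mg/kg and 4.14 to 4.32 at 30 mg/kg, with 2 of 9 lower in treated libraries and 3 of 9 at 30 mg/kg. In the male controls it was 4.85 and 4.87, within the range of the female controls. The mean of the macrophage markers was 7.82 and 7.88 in the male controls, above the 7.44 to 7.77 of the female controls. For the erythroid, endothelial, fibroblast, adrenal cortex and chromaffin markers the ranges of male and female controls overlapped. The mean of 5 erythroid markers was 5.71 to 6.74 in control, 4.73 to 5.55 at 20 mg/kg and 4.52 to 5.80 at 30 mg/kg, with 2 of 5 lower. That of 11 macrophage markers was 7.44 to 7.88, 7.33 to 7.86 and 6.76 to 7.73, with 0 of 11 past the threshold, and 4 of 11 lower at 30 mg/kg. That of 10 endothelial markers was 6.64 to 7.20, 6.81 to 7.22 and 7.23 to 7.50, with 1 of 10 higher, and 3 of 10 higher at 30 mg/kg. That of 9 fibroblast and pericyte markers was 7.38 to 7.72, 6.99 to 7.45 and 7.06 to 7.36, with 1 of 9 lower. At 20 mg/kg 2 of these 9 were lower, and at 30 mg/kg 2 were lower and 1 higher. Before adjustment, 5 of the 9 were lower and 1 higher at p under 0.05 in treated libraries. The mean of 9 adrenal cortex markers was 10.63 to 11.63, 10.33 to 11.08 and 10.87 to 11.58. Of these, 0 of 9 passed the threshold in treated libraries, 1 was lower at 20 mg/kg and 1 higher at 30 mg/kg. Chromaffin markers (8) averaged 10.43 to 11.01, 10.58 to 11.31 and 9.87 to 10.87, with 1 lower at 30 mg/kg. Of the erythroid markers 1 of 5 lay below the lower quartile in every library, and of the lymphocyte, macrophage, endothelial, fibroblast, adrenal cortex and chromaffin markers 0. Over all genes 0.965% were lower and 0.517% higher in treated libraries, and 14.4% had p under 0.05 before adjustment. At 20 mg/kg 0.524% of all genes were lower and 0.655% higher, and at 30 mg/kg 4.89% and 3.66%. The part of these cells in the results for the mitosis and replication genes was not tested.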

How the data were processed

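The values used are the deposited RMA log2 signals of 29214 probe sets on 17 arrays, made by the authors with RMA and Affymetrix Expression Console 1.3.0.187, per the submitters' processing notes. RMA corrects background, normalizes between arrays and summarizes probes on the log2 scale. The annotation gave 15310 probe sets 1 symbol, 323 several and 13581 none. The probe set with the highest mean stood for each of 14506 genes. R 4.3.3 and limma 3.58.1 (lmFit, eBayes, sex as a term, two-sided) tested treated against control, each dose against control, 30 against 20 mg/kg and the interaction of treatment with sex, with Benjamini-Hochberg adjustment over 14506 genes at 0.05; the fits were tested on simulated data. The genes, lists and promoter elements were chosen with earlier results of these data known.

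Genes named are those past the threshold in any comparison, the 2 of smallest p in each role list, other pathway genes past the threshold in treated against control (if over 8, the 4 of smallest p of each list) and Cdkn1b, the mutated gene; others were named after their values were seen. Values in every library are given for those past it in treated against control and others the text turns on. Same-numbered control and treated libraries deviated from their group means with r of -0.183 to 0.085 across genes, so the numbers were not used as pairs. Alternatives covered sex, variance priors, weights, scaling, probe sets, filters, thresholds, number sets and single libraries. Array signals carry no depth; the number of arrays limits the precision. No arrays were identical (highest correlation 0.991). Promoters are those of RefSeq, build GRCr8; the design of the array, its scanner and its probe sequences were not used here.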

Additional observations from a re-analysis of the deposited data

Results flagged for a closer look

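Of 75 groups of 4 to 10 libraries tested, over 23 named genes and the library means of both gene classes, 4 held a library whose gap to the nearest other was large for the range of its group; chance gives about 1 in 20. Cdc20 was high in replicate 8 at 20 mg/kg (4.69, the other 5 at 3.98 to 4.08). Mcm2 was low in replicate 2 at 30 mg/kg (6.21, the others at 6.81 to 6.88). Rfc3 was low in replicate 10 at 20 mg/kg (5.73, the others at 6.07 to 6.23), and Uhrf1 was high in control replicate 4 (4.87, the others at 4.35 to 4.57). For Top2a, the treated minus control difference in male minus that in female rats was -2.04 on the log2 scale (limma interaction, adjusted p = 0.037). Top2a averaged 6.59 in male and 4.60 in female controls. In treated libraries it averaged 3.76 in male and 3.81 in female rats, near the background level. The call was lost without any of 12 of the 17 libraries.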

How the results depend on the processing

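Counts of the 50 genes called lower follow, in the order treated (4 with all libraries and the settings above), 20 mg/kg (3) and 30 mg/kg (7) against control. They were 0, 0 and 1 in female rats alone, 11, 10 and 8 with weights for array quality, 1, 0 and 3 for genes over the array median (17 of the 50), 0, 0 and 1 at a threshold of 0.01 and 7, 6 and 12 at 0.10. They were 10, 5 and 1 with the set of numbers as a term, and 1, 1 and 2 without control replicates 6 and 7. Treated and 20 mg/kg had 2 and 0 without the sex term and 2 and 1 after quantile normalization, and 20 mg/kg had 5 after median centring. Numbers 1 to 4 alone gave 0 and numbers 5 to 10 alone 7. With a replicate block, which the check of pairing did not warrant and which leaves 5, 1 and 2 residual degrees of freedom, the counts were 5, 0 and 0. Leaving out single libraries gave 1 to 4, 0 to 3 and 1 to 11, and moved E2f1 between -0.08 and 0.02 and Mcm2 between -0.13 and 0.01 in treated against control.

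Between the doses, the lower count of 1 became 4 with array weights, 2 with either filter, 5 at 0.10, 2 without control replicates 6 and 7 and 0 with the set as a term (1 to 4 without single libraries). The higher count of 2 became 0 in female rats, at 0.01 and with the set as a term, and 1 with trended and robust priors, array weights or the median filter (0 to 2 without single libraries). The interaction count of 1 became 4 with array weights, and 0 after quantile normalization, with the median filter, at 0.01, with the set as a term and within numbers 5 to 10 (0 to 2 without single libraries). Genes above background throughout became 2 of mitosis and 8 of replication against the array median, and 6 of mitosis against the lower quartile over genes with 1 symbol. Signs turned in treated against control for genes that passed nowhere there. Within numbers 1 to 4 they were Birc5 (0.04), E2f1 (0.02), Mcm2 (0.24), Fen1 (-0.03) and Uhrf1 (0.06). E2f1 also turned without control replicate 3 (0.02), and Mcm2 without control replicate 3, control replicate 6 or 20 mg/kg replicate 9 (0.01 each) and with the block (0.12). Over 37 gene results and 1168 settings, 947 kept direction and side of the threshold, 192 fell below it, 19 rose past it and 10 turned sign. Shares over all genes are not given beside the counts of single settings in this section. The causes were not tested.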

Other observations

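The regulators of these genes showed calls of both signs at 30 mg/kg. Of 19 measured RB, E2F and DREAM regulators, 4 were lower than in control: the mitotic entry kinase Wee1 (-0.96 ± 0.21, limma adjusted p = 0.011), the CDK-activating kinase Cdk7 (-0.72 ± 0.16, 0.012), E2f3 (-1.05 ± 0.28, 0.028) and Cdk6, a partner of the D cyclins (-1.01 ± 0.27, 0.028). Lin54, the DNA-binding subunit of the MuvB complex (0.71 ± 0.15, adjusted p = 0.0091), E2f5 (0.94 ± 0.21, 0.011) and Myc (0.59 ± 0.16, 0.028) were higher. Of 45 other replication genes, 3 were lower at that dose and 0 higher: Rpa1, the large subunit of the single-strand binding protein (-0.88 ± 0.14, adjusted p = 0.0011), the dUTPase gene Dut (-0.73 ± 0.22, 0.046) and the fork protection gene Tipin (-1.15 ± 0.34, 0.046). At p under 0.05 before adjustment were 17.8% of these 45 genes, against 23.8% of all genes. Of 41 other mitosis genes, 5 were lower and 0 higher at this dose. They were Cit (-0.79 ± 0.19, limma adjusted p = 0.017), Dlgap5 (-0.71 ± 0.18, 0.024), Spc25 (-0.61 ± 0.16, 0.028), Kif22 (-0.44 ± 0.13, 0.046) and Cenpk (-1.12 ± 0.34, 0.049). The genes of this paragraph were named after their values were seen, and over all genes 4.89% were lower and 3.66% higher in this comparison. Their calls come from the fit of all 17 libraries, and are not given under the other settings.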
